A study of Arabidopsis thaliana with 64 samples.

Results

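The reads considered here are those counted on genes of the chloroplast and mitochondrial genomes, the small genomes that each plant cell keeps beside its nuclear one. Members were all rows of the gene count tables whose identifier begins with ATCG (chloroplast, 125 rows) or ATMG (mitochondrion, 143 rows), which makes 268 of 33321 rows. They were examined in 64 mRNA libraries of Arabidopsis thaliana, 36 from the aerial tissue of seedlings at 15 days after sowing (DAS) and 28 from the 4 largest leaves at 28 DAS. Each of the 32 groups had 2 libraries from separate pools of 5 plants, and the labels name no transgene or treatment. The design text calls the 2 pools biological replicates.

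The groups were Ler and C24, the 2 inbred accessions used as parents, their reciprocal F1 hybrids LerxC24 and C24xLer, and F4 lines descended from those hybrids. The large F4 lines L3-1, L3-2, L4-1 and L4-2, called hybrid mimics by the submitters, were grown with LerxC24 in batch 2, and L1-1, L1-2, L2-1 and L2-2 with C24xLer in batch 1. Each batch had its own Ler and C24 libraries and its own type of light tube. The 15 DAS set also held small F4 lines, S1-1 and S2-1, and the smallest Ler and C24 seedlings of the batch 1 population. The batch of the S lines is only partly given. Each F1 is grown with the F4 lines that descend from it, so in these lines and F1s the cross direction goes with the batch, while Ler and C24 were each grown in both. One L4-2 library titled 28 DAS carries a 15-day tissue label and was used by its title; its summed level of 8 root marker genes lay in the 28 DAS range of 3.48 to 7.23 CPM (read counts scaled to the size of the library), against 50.4 to 346 CPM at 15 DAS.

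Plastids and mitochondria descend from bacteria and keep genomes with genes for photosynthesis, respiration and their own ribosomes, while most of their proteins are coded in the nucleus. Chloroplast genes are transcribed by a plastid-encoded polymerase that needs nuclear sigma factors and by a phage-type nuclear-encoded polymerase, and the transcripts are then cut, edited and stabilised by nuclear-encoded proteins. Both organelles are passed on mostly through the mother. In the usual notation the seed parent is written first, which the labels do not state. Plant organelle transcripts mostly lack the long poly(A) tails of nuclear mRNA, so in mRNA libraries they are a remainder and their level here is not the level in the cell. The reference mitochondrial sequence of TAIR10, the build named in the submitters' processing notes, was determined from C24. A copy of much of the mitochondrial genome lies on nuclear chromosome 2: annotation notes pair 55 nuclear loci there with 53 of the mitochondrial IDs. Of these 55 loci, 52 matched the mitochondrial sequence over at least 95% of their length, all 52 at 99% identity or more and 27 without a mismatch or gap. The match was made in the reference genome used here. Whether its mitochondrial sequence is the one the reads were mapped to was not checked. Where the 2 places are identical in the sequence mapped to, a read cannot be assigned to 1 of them.

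Chloroplast rows held 3917138 reads over the 64 libraries and mitochondrial rows 150972. Of the chloroplast rows, 99 had at least 100 reads in all, 20 had 1 to 99 and 6 had none. Of the mitochondrial rows, 43 had at least 100 reads, 42 had 1 to 99 and 58 had none. Those at 0 were 21 of the 53 IDs paired with chromosome 2 and 37 of the 90 not paired. Libraries held 40347313 to 256721442 counted reads at 28 DAS and 36324848 to 88844771 at 15 DAS. The chloroplast share ranged over 0.0370 to 0.244% of counted reads at 28 DAS, with a median of 0.0557%, and over 0.0232 to 0.652% at 15 DAS, with a median of 0.0445%. The mitochondrial share had a median of 0.00213% at 28 DAS and 0.00265% at 15 DAS. A library thus gave 636 to 7132 mitochondrial reads at 28 DAS and 942 to 8338 at 15 DAS, which sets the counting error of single mitochondrial rows. Fewer organelles per cell, less RNA per organelle and more or less carry-over of RNA without poly(A) tails cannot be told apart in these shares.

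Reads fell on few rows. ATCG00020 took 21.6% of all chloroplast reads, ATCG00490 16.5% and ATCG00340 6.27%, while ATMG00030 took 45.2% of all mitochondrial reads, ATMG01360 9.61% and ATMG00090 8.59%. The files give no names or lengths for these IDs, so levels are compared between groups and not between genes.

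In 5 mitochondrial rows, C24 libraries held reads that Ler libraries almost lacked. The rule for them was set after their values had been seen: at least 10 reads over the 20 parental libraries and a ratio above 8 between the parents, with each row taken relative to the reads of its own genome and 0.5 reads added. Of 165 rows with enough reads, 5 passed, with ratios of 152 (ATMG00040), 138 (ATMG01170), 100.02 (ATMG00730), 60.3 (ATMG00050) and 21.2 (ATMG01090), all lower in Ler. The next rows were ATMG00680 at 6.34 and the chloroplast row ATCG00260 at 4.72, so no chloroplast row separated the accessions in this way. Annotation notes name ATMG00730 as cytochrome c oxidase subunit 3, part of the respiratory complex that reduces oxygen. They name ATMG01090 as ATP synthase 9, part of the membrane ring of the mitochondrial ATP synthase. That name comes from a protein match of the nuclear locus AT2G07777, of which 59.3% matched the mitochondrial sequence. ATMG01090 is not the only row so annotated: ATMG01080, annotated as mitochondrial F0-ATPase subunit 9, held 6 reads over the 64 libraries. No note gives ATMG00040, ATMG00050 or ATMG01170 a name.

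ATMG01170 shows the pattern most fully. It had 0 reads in all 6 Ler libraries at 15 DAS, against 20 and 15 in C24 of batch 2 and 28 and 26 in C24 of batch 1. At 28 DAS Ler had 0 and 0 reads in batch 2 and 0 and 3 in batch 1, against 36 and 33 in C24 of batch 2 and 31 and 63 in C24 of batch 1. No Ler library reached any C24 library at either age, in either batch. The fitted difference between Ler and C24 passed at both ages (edgeR quasi-likelihood test with Benjamini-Hochberg adjustment over all tested genes, adjusted p = 8.67e-06 at 15 DAS and 8.44e-06 at 28 DAS). Over the 10 Ler and 10 C24 libraries, ATMG01170 was 161-fold lower in Ler relative to mitochondrial reads (95% counting interval 54.7 to 787, from 3 reads in Ler and 297 in C24). Intervals and limits of this kind cover counting error only, and those between Ler and C24 come from the libraries that chose the rows.

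The F1 hybrids and the F4 lines fell on the side of the parent written first in their cross. ATMG01170 had 0 and 0 reads in LerxC24 at 15 DAS and 0 and 1 at 28 DAS, against 19 and 22 in C24xLer at 15 DAS and 24 and 53 at 28 DAS. The 16 libraries of L3 and L4 lines had 0 reads each, against 11 to 93 reads, with a median of 29, in the 16 libraries of L1 and L2 lines. The row was thus at least 240-fold lower in the L3 and L4 lines, with the floor set at 3 reads over the whole set. The 4 S-line libraries had 21 to 46 reads, a level found in C24 and in the L1 and L2 lines and in no library of Ler, LerxC24, L3 or L4.

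ATMG00730, the cytochrome oxidase row, split the same libraries. It had 0 and 1 reads in Ler of batch 2 and 1 and 0 in Ler of batch 1 at 15 DAS, against 6 and 10 in C24 of batch 2 and 19 and 9 in C24 of batch 1. At 28 DAS all 4 Ler libraries were at 0, against 16 and 17 reads in C24 of batch 2 and 19 and 25 in C24 of batch 1. LerxC24 had 0 and 0 reads at 15 DAS and 0 and 1 at 28 DAS, against 13 and 3 in C24xLer at 15 DAS and 4 and 25 at 28 DAS. The L3 and L4 lines had 0 or 1 read in each library, against 6 to 62 in the L1 and L2 lines. Ler and C24 differed by −4.26 ± 0.88 on the log2 scale at 15 DAS (SE, edgeR, adjusted p = 0.00227), and the test also passed at 28 DAS (adjusted p = 7.22e-05). The nuclear locus paired with it, AT2G07687 on chromosome 2 (3311654 to 3312651), matched the mitochondrial sequence base for base over its 998 bases. That locus held 294 reads over the 64 libraries. Their split between Ler and C24 libraries is not given here. Whether reads of this gene were placed there in Ler was not tested, so few reads on ATMG00730 need not mean an absent transcript.

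ATMG00040 had 0 reads in every Ler and LerxC24 library and 1 read in the 16 libraries of L3 and L4 lines together. C24 libraries had 0 to 11 reads, C24xLer 3 to 13, the L1 and L2 lines 2 to 27 and the S lines 4 to 15. It was at least 24.98-fold lower in Ler than in C24 and 265-fold lower in the L3 and L4 lines than in the L1 and L2 lines (95% counting interval 47.0 to 10500). Between Ler and C24 it passed at 28 DAS (edgeR, adjusted p = 0.00132) and not at 15 DAS (adjusted p = 0.148). ATMG00050 had no read in Ler, LerxC24, L3 or L4 and 18 reads in C24, 5 in C24xLer, 79 in L1 and L2 and 18 in the S lines. ATMG01090 had 2 reads in Ler, 0 in LerxC24 and 0 in L3 and L4, against 32 in C24, 10 in C24xLer and 49 in L1 and L2. These last 2 rows rest on few reads: ATMG00050 was at 0 in some libraries of C24, C24xLer and the L1 and L2 lines too, and ATMG01090 in some of the L1 and L2 lines.

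Taken as a sum, the 5 rows made up 7 of 29680 mitochondrial reads in Ler (0.0236%), 2 of 14359 in LerxC24 (0.0139%) and 3 of 43466 in the L3 and L4 lines (0.00690%). They made up 546 of 18219 in C24 (2.997%), 206 of 5641 in C24xLer (3.65%), 1220 of 33844 in the L1 and L2 lines (3.605%) and 279 of 5763 in the S lines (4.84%). The highest library among Ler, LerxC24, L3 and L4 had 0.0973% and the lowest among the others 1.58%, so the 2 sets of libraries did not overlap. Relative to mitochondrial reads the sum was 127-fold lower in Ler than in C24 (95% counting interval 61.3 to 318). It was 262-fold lower in LerxC24 than in C24xLer (71.7 to 2179) and 522-fold lower in L3 and L4 than in L1 and L2 (178 to 2536). The rows were chosen by the ratio between these Ler and C24 libraries, so a large difference between the parents was built into the choice. The F1, L and S libraries did not enter that ratio. In a library at 0, the count allowed a share of up to 0.0446% in the deepest case and 0.472% in the shallowest, a 28 DAS library of L4-2.

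**Figure D1:**
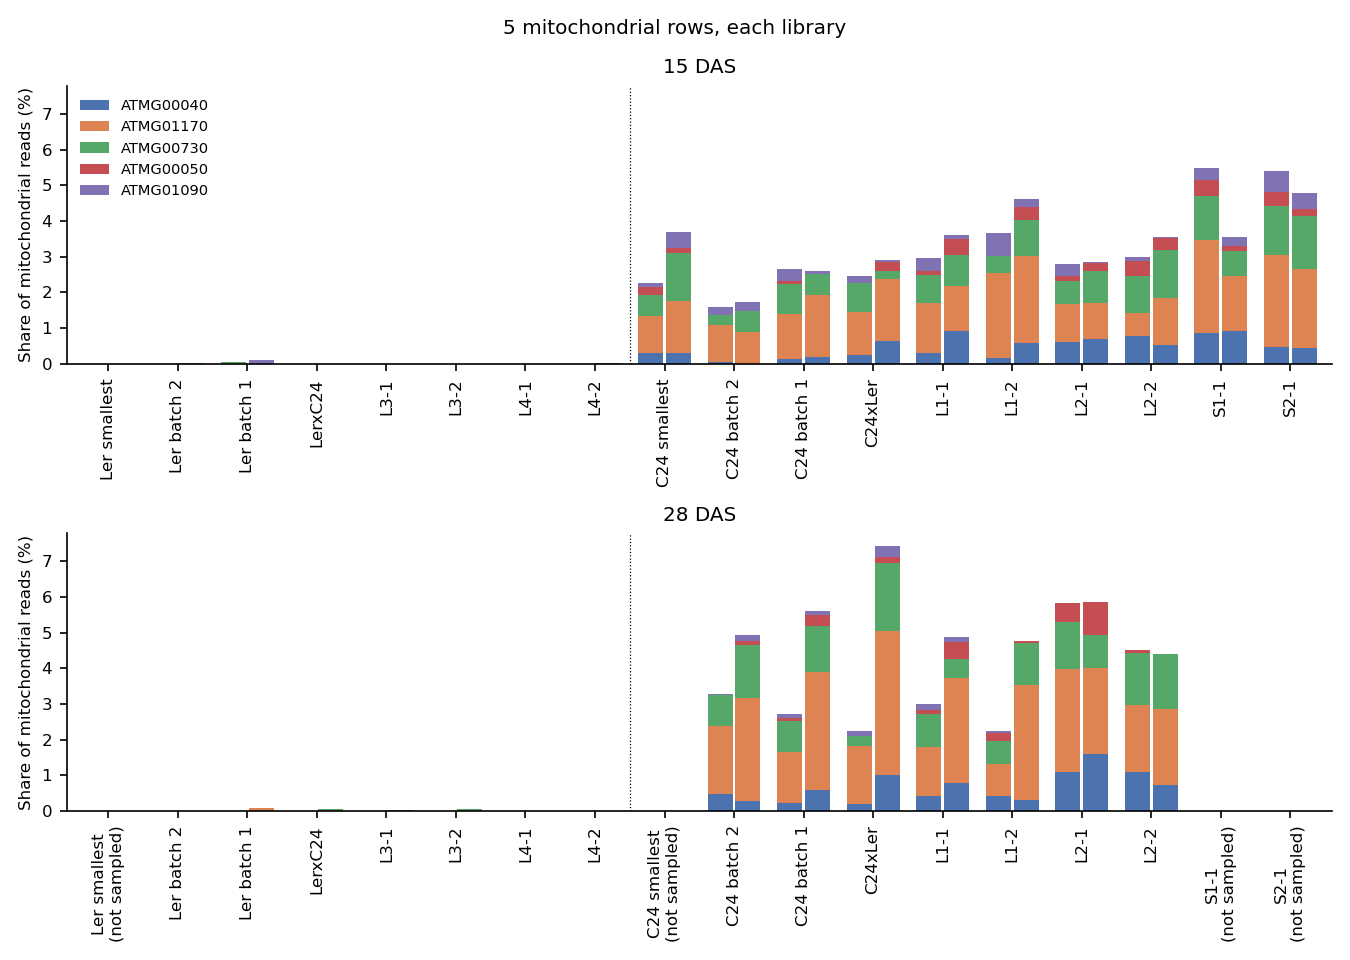
Share of each library's mitochondrial reads (%) on the 5 rows, stacked by row, with 1 bar per library at 15 DAS (top) and 28 DAS (bottom). Left of the dotted line, Ler, LerxC24, L3 and L4 libraries reach at most 0.0973%; right of it, C24, C24xLer, L1, L2 and S libraries hold 1.58 to 7.42%.

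C24 held reads on the rows in both batches, and Ler held almost none in either. At 15 DAS the 5 rows made up 1 of 11128 mitochondrial reads in Ler of batch 2, against 60 of 3647 (1.65%) in C24 of batch 2, and 3 of 3754 in Ler of batch 1, against 98 of 3736 (2.62%) in C24 of batch 1. At 28 DAS Ler had 0 of 3029 in batch 2 and 3 of 7137 in batch 1, against 118 of 3020 (3.91%) and 166 of 4086 (4.06%) in C24. The contrast fixed for the lines and the F1s subtracts the parents' batch difference on the log scale, which for these rows rests on 0 to 3 reads in each Ler library, and edgeR called none of them under it. DESeq2 with the same contrast called ATMG01170 between the L3 and L4 and the L1 and L2 lines (adjusted p = 2.67e-06 at 15 DAS and 3.46e-05 at 28 DAS). It also called ATMG00730 at both ages (adjusted p = 0.000108 and 0.00138) and ATMG00040 at 28 DAS (adjusted p = 0.00229). Compared in edgeR without that subtraction, a contrast chosen after seeing the data, ATMG01170 passed between LerxC24 and C24xLer (edgeR, adjusted p = 0.00331 at 15 DAS and 7.39e-05 at 28 DAS). It also passed between the L3 and L4 and the L1 and L2 lines (adjusted p = 5.85e-08 at 15 DAS and 2.13e-07 at 28 DAS). ATMG00730 passed between the lines at both ages (adjusted p = 1.57e-06 at 15 DAS and 4.74e-06 at 28 DAS).

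Ler was then compared with C24 across all rows. At 15 DAS, 97 chloroplast and 33 mitochondrial rows had enough reads to be tested; 6 chloroplast rows were higher in Ler and 0 lower, and 5 mitochondrial rows were higher and 2 lower. Over all tested genes, 10.7% were higher and 10.9% lower. The median log2 difference was 0.89 for the chloroplast rows and 0.94 for the mitochondrial rows, beside 0.00 for all genes. At 28 DAS, 1 of 91 chloroplast rows was higher, and 2 of 29 mitochondrial rows were higher and 3 lower, beside 11.9% and 12.2% of all genes; with a replicate block, the chloroplast calls numbered 5. Medians were then 0.40 for the chloroplast and 0.39 for the mitochondrion, beside 0.02 for all genes.

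The chloroplast calls at 15 DAS rest in large part on 1 library. ATCG00430 is annotated as photosystem II reaction center protein G. That name comes from a protein-match note of the nuclear locus AT5G11770, and whether its product belongs to that photosystem was not checked. ATCG00430 had 3.50 and 22.4 CPM in Ler of batch 2 and 3.62 and 4.35 CPM in Ler of batch 1. C24 had 2.70 and 2.96 CPM in batch 2 and 2.31 and 1.44 CPM in batch 1, so no library overlapped and 1 Ler library stood far above the others. The difference was 1.61 ± 0.41 on the log2 scale (SE, edgeR, adjusted p = 0.00697); without that library, Ler batch 2 replicate D, it was 0.678 and no longer passed. ATCG00420, known to the annotation through a nuclear pseudogene, had 2.20, 9.47, 2.102 and 2.64 CPM in Ler against 1.79, 1.36, 1.36 and 0.978 CPM in C24. Its difference of 1.42 ± 0.41 (SE, edgeR, adjusted p = 0.0162) was 0.732 without the same library, and no longer passed. The chloroplast calls numbered 3 without that library and 49 without its partner, Ler batch 2 replicate C; within batch 1 alone there were 0, and within batch 2 alone 37. Leaving out C24 batch 2 replicate D or C24 batch 1 replicate B also left 3 chloroplast and 3 mitochondrial calls.

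ATCG00220, with no name in the annotation, was higher in Ler at 15 DAS. It had 1.08 and 2.70 CPM in Ler against 0.437 and 0.596 CPM in C24 in batch 2, and 5.20 and 5.49 CPM in Ler against 3.22 and 2.51 CPM in C24 in batch 1. Ler was higher within each batch, by 1.34 ± 0.24 on the log2 scale over both (SE, edgeR, adjusted p = 0.000281), and batch 2 was lower than batch 1 in each accession; 15 of 17 alternatives kept the call. ATMG00670 was called higher in Ler at both ages, by 1.33 at 15 DAS (edgeR, adjusted p = 0.0262) and 1.24 at 28 DAS (adjusted p = 0.00713). At 28 DAS it had 2.27 and 1.68 CPM in Ler of batch 2 and 1.61 and 1.39 CPM in Ler of batch 1. C24 had 0.653 and 0.928 CPM in batch 2 and 0.536 and 0.829 CPM in batch 1, with no overlap. At 15 DAS the libraries of the 2 accessions overlapped, and 8 of 17 alternative settings lost the call. At 28 DAS it was lost within batch 1 alone (1.09, adjusted p = 0.122) and with scaling to mitochondrial reads (0.66, adjusted p = 0.109). The chloroplast row called at 28 DAS, ATCG00390, was named after its values were seen: it had 1.25 and 0.755 CPM in Ler of batch 2 and 1.01 and 0.481 CPM in Ler of batch 1, against 0.359, 0.270, 0.238 and 0.240 CPM in C24. Its difference of 1.65 (edgeR, adjusted p = 0.0277) lost its call in 9 of 17 alternatives.

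ATCG00670, annotated as the plastid-encoded ClpP, a subunit of the protease that degrades stromal proteins, did not pass between the accessions. At 15 DAS it had 3.85 and 18.4 CPM in Ler of batch 2 and 5.83 and 9.03 CPM in Ler of batch 1, against 8.95 and 7.90 CPM in C24 of batch 2 and 9.71 and 7.65 CPM in C24 of batch 1. The difference was 0.06 on the log2 scale (edgeR, adjusted p = 0.917). Relative to chloroplast reads it was −0.778 and passed (adjusted p = 0.00998), so its direction depends on the scaling.

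Whole-genome shares did not separate the genotypes beyond the spread of their libraries. Ler averaged 0.149 ± 0.247% of reads on the chloroplast at 15 DAS and C24 0.0552 ± 0.0253% (SD, n = 6 each, the smallest seedlings included; exact permutation test on log2 shares across batches, two-sided, p = 0.604). At 28 DAS Ler averaged 0.0911 ± 0.0646% and C24 0.0600 ± 0.0240% (SD, n = 4 each; exact permutation p = 0.457). Mitochondrial shares gave p = 0.526 and 0.257 by the same exact permutation test. Permuted within batch, which was added after seeing the data, the chloroplast share gave exact p = 0.476 at 15 DAS and 0.389 at 28 DAS, and the mitochondrial share 0.495 and 0.167. At 15 DAS the chloroplast log2 difference was 1.38 within batch 2 and 0.09 within batch 1. Without the smallest seedlings it was 0.70 over both batches (exact permutation p = 0.722, where 0.0556 is the smallest this design allows). The F1s against their parents gave chloroplast log2 differences of −0.04 at 15 DAS and −0.24 at 28 DAS, and the L lines −0.29 and −0.02 (exact permutation within batch, p from 0.455 to 0.978). Their mitochondrial differences ran over −0.36 to −0.06 (p from 0.222 to 0.842). Of the 22 tests of shares, 11 comparisons in 2 genomes, 0 passed after Benjamini-Hochberg adjustment, and 2 had an unadjusted p below 0.05.

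The largest share differences followed the batch at 15 DAS. In the parents, the chloroplast share averaged 0.227 ± 0.283% in batch 2 and 0.0390 ± 0.00471% in batch 1 (SD, n = 4 each), and the 4 libraries of batch 2, at 0.0794 to 0.652%, all lay above those of batch 1, at 0.0348 to 0.0440%. The ratio was 3.63 on the log scale (exact permutation p = 0.0286, the smallest this design allows; 0.314 after adjustment over 22 tests). The mitochondrial share averaged 0.00835 ± 0.00974% in batch 2 and 0.00228 ± 0.000412% in batch 1, also without overlap (ratio 2.47, same exact p). Without Ler batch 2 replicate D the log2 differences were 1.13 for the chloroplast and 0.625 for the mitochondrion, against 1.86 and 1.31 with it. Across all genotypes at 15 DAS, batch 2 libraries ranged over 0.0522 to 0.652% chloroplast reads with a median of 0.0795% (14 libraries) and batch 1 libraries over 0.0232 to 0.0742% with a median of 0.0421% (18 libraries). At 28 DAS the batches lay together over all genotypes, with medians of 0.0557% in batch 2 and 0.0570% in batch 1 (14 libraries each). In the parents alone batch 2 was then lower, with overlap. The chloroplast share averaged 0.0523 ± 0.00569% against 0.0988 ± 0.0626% (SD, n = 4 each, log2 difference −0.73, exact permutation p = 0.143). The mitochondrial share averaged 0.00208 ± 0.000287% against 0.00303 ± 0.00106% (log2 difference −0.49, exact permutation p = 0.0571).

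**Figure D2:**
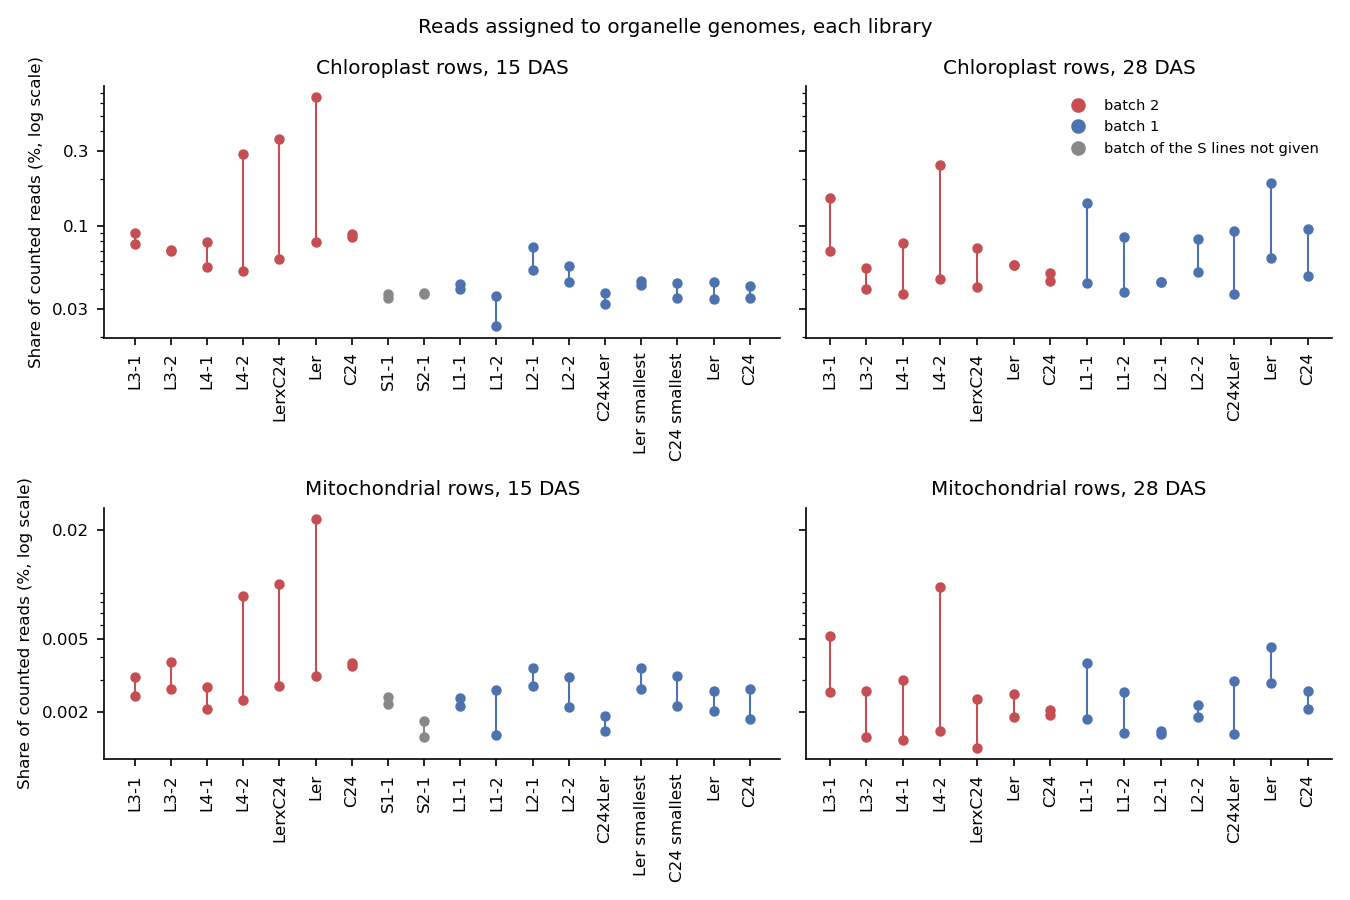
Share of counted reads (%, log scale) on chloroplast rows (top) and mitochondrial rows (bottom) at 15 DAS (left) and 28 DAS (right), with 1 point per library and a line joining the 2 libraries of a group. At 15 DAS batch 2 (red) lies mostly above batch 1 (blue), with chloroplast medians of 0.0795% and 0.0421%; at 28 DAS the batches overlap.

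Libraries of 1 group could differ more than batches. In 10 of the 32 groups the chloroplast share of 1 library was over 2 times that of the other. The widest gaps at 15 DAS were in Ler of batch 2 (0.652% and 0.0794%), LerxC24 (0.354% and 0.0620%) and L4-2 (0.286% and 0.0522%), and at 28 DAS in L4-2 (0.244% and 0.0461%). The mitochondrial share of the same 10 libraries was 1.57 to 7.30 times that of their partner. The Ler library with 0.652% was replicate D of batch 2, which also had the fewest counted reads of all 64, 36324848. The summed level of 9 leaf marker genes in them was 0.766 to 1.08 times that of their partner, and that of 4 senescence markers 0.303 to 2.28 times; the part of either in the shares was not tested.

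By gene, batch 2 against batch 1 in the parents at 15 DAS called 56 of 97 chloroplast rows higher and 3 lower, and 16 of 33 mitochondrial rows higher and 0 lower. Over all tested genes 13.5% were higher and 17.0% lower. The median log2 difference was 1.44 for chloroplast rows and 1.61 for mitochondrial rows, beside −0.03 for all genes. Without Ler batch 2 replicate D the calls numbered 22 and 6. The leaf markers summed to 37569 to 41724 CPM in batch 2 and 37586 to 56402 CPM in batch 1, and the root markers to 52.5 to 105 CPM in batch 2 and 54.4 to 145 CPM in batch 1. The senescence markers summed to 35.0 to 87.5 CPM in batch 2, with a median of 85.2 CPM, and to 24.5 to 59.3 CPM in batch 1, with a median of 35.4 CPM; the part of these lists in the calls was not tested.

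ATCG00490 had 176 and 1749 CPM in Ler and 192 and 181 CPM in C24 of batch 2, against 38.5 and 52.0 CPM in Ler and 46.7 and 37.2 CPM in C24 of batch 1. Each batch 2 library was above each batch 1 library, and 1 Ler library stood far above the rest (3.33 ± 0.62 on the log2 scale, SE, edgeR, adjusted p = 0.000385). ATCG00340 had 66.0, 648, 94.3 and 88.2 CPM in batch 2, in the same order of libraries, against 15.1, 21.2, 29.0 and 21.0 CPM in batch 1 (3.13, edgeR, adjusted p = 0.000446). ATCG00580, named after its values were seen, had 8.40, 77.2, 7.74 and 8.10 CPM in batch 2 against 1.60, 2.14, 1.26 and 1.36 CPM in batch 1. Among mitochondrial rows ATMG00080, also named afterwards, had 2.01, 12.7, 2.03 and 1.68 CPM in batch 2 against 0.573, 0.594, 0.479 and 0.403 CPM in batch 1 (2.89, edgeR, adjusted p = 9.75e-05). ATMG00030, with most mitochondrial reads, had 12.1, 120, 17.3 and 17.4 CPM in batch 2 against 9.65, 13.1, 15.0 and 7.77 CPM in batch 1. Its libraries overlapped, and its call (1.61, edgeR, adjusted p = 0.0251) was lost without Ler batch 2 replicate D.

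ATCG00220 went the other way. With 1.08 and 2.70 CPM in Ler and 0.437 and 0.596 CPM in C24 of batch 2, against 5.20 and 5.49 CPM in Ler and 3.22 and 2.51 CPM in C24 of batch 1, it fell by 1.97 ± 0.24 on the log2 scale (SE, edgeR, adjusted p = 5.36e-06). All 15 alternative settings kept that call. The rows also moved within the chloroplast pool: ATCG00490 took a median of 21.3% of chloroplast reads in 15 DAS batch 2 libraries and 11.8% in batch 1 libraries. When each row was scaled to the reads of its own genome, 21 chloroplast rows were higher and 29 lower in batch 2, and 24 rows kept the direction of the library-scaled call while 4 had the opposite one. The split of calls between higher and lower thus depends on whether levels are taken per library or per chloroplast read.

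At 28 DAS the batches of the parents differed in 2 organelle rows, both named after their values were seen. ATCG00210 fell by 1.44 in batch 2 (edgeR, adjusted p = 0.0274) and the mitochondrial ATMG00690 rose by 0.78 (adjusted p = 0.0244), beside 9.18% of all genes higher and 9.97% lower. With a replicate block the chloroplast calls numbered 6. Without C24 batch 1 replicate A, C24 batch 2 replicate C, Ler batch 1 replicate A or Ler batch 2 replicate C there were 0 calls in either genome, without Ler batch 2 replicate D 0 chloroplast calls, without Ler batch 1 replicate B 4 chloroplast calls, and without C24 batch 1 replicate B 2 mitochondrial calls.

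**Figure D3:**
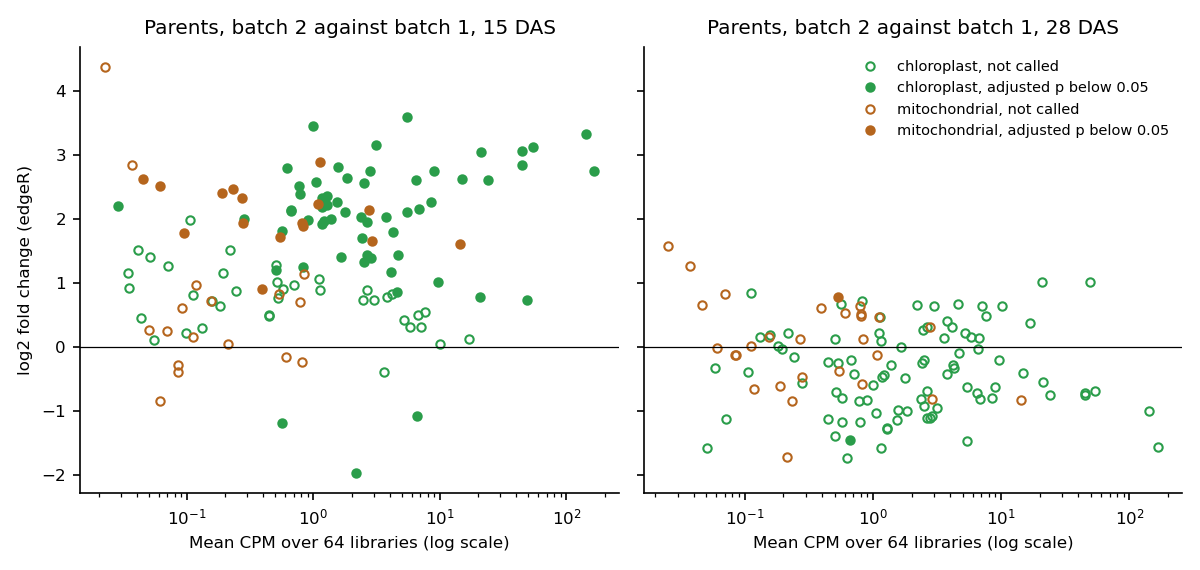
Fitted log2 fold change of batch 2 against batch 1 in the parents for each tested organelle row, against its mean CPM over 64 libraries (log scale), at 15 DAS (left) and 28 DAS (right); filled points passed the test. At 15 DAS 56 chloroplast and 16 mitochondrial rows are called above 0; at 28 DAS 1 row of each genome is called.

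The age comparison runs from seedling shoots to the largest leaves of older plants, so tissue and growth substrate changed with age, and whether both tables were counted in the same way is not given in the sources used here. Over the 14 groups sampled at both ages, the chloroplast share averaged 0.0750 ± 0.0313% at 28 DAS and 0.0964 ± 0.0932% at 15 DAS (SD, n = 14 groups each), a log2 difference of −0.02 (exact paired permutation p = 0.943). It was higher at 28 DAS in 7 of 14 groups. The mitochondrial share averaged 0.00260 ± 0.00110% at 28 DAS and 0.00381 ± 0.00297% at 15 DAS (log2 difference −0.38, exact paired permutation p = 0.0902), higher at 28 DAS in 6 of 14 groups.

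The batches went opposite ways. In batch 2 the chloroplast share at 28 DAS was lower by 0.73 on the log2 scale and higher in 1 of 7 groups (exact paired permutation p = 0.0469). In batch 1 it was higher by 0.69 and higher in 6 of 7 groups (exact paired permutation p = 0.0469). The difference between the batches was −1.42 (exact permutation p = 0.0035, with groups as units, a test added after seeing the data). The groups of a batch shared its light tubes, and the lines and F1s differed between batches. Such a p covers the spread among groups and not that between growths of a batch. The lowest differences were those of Ler (−2.0004) and LerxC24 (−1.44) in batch 2, and the highest that of Ler in batch 1 (1.47). Without the 10 libraries that stood apart from their partners, the batch difference was −0.77 (exact permutation p = 0.00408), with 0 of 7 groups of batch 2 and 6 of 7 of batch 1 higher at 28 DAS. For the mitochondrial share the difference was −0.72 (exact permutation p = 0.0816). In batch 1 L2-1 departed from the other groups, with a chloroplast difference of −0.50. The leaf markers of the parents also differed in their course: in batch 2 they summed to a median of 69409 CPM at 28 DAS and 39789 CPM at 15 DAS, and in batch 1 to 38904 CPM at 28 DAS and 41312 CPM at 15 DAS. At 28 DAS the batches did not overlap (65537 to 78006 CPM in batch 2 and 34627 to 49809 CPM in batch 1), and the part of this in the shares was not tested.

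**Figure D4:**
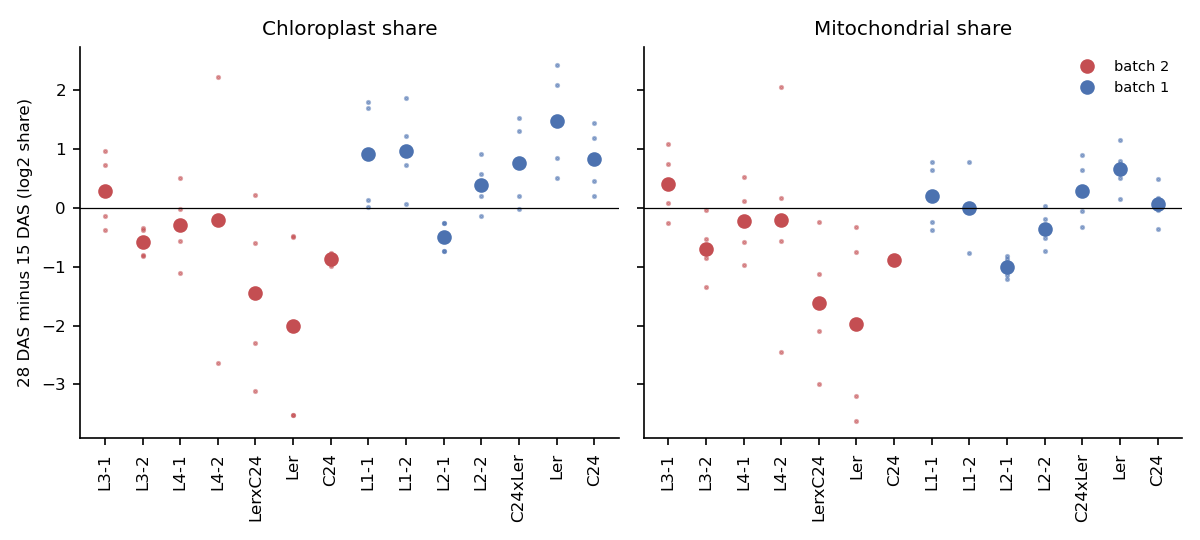
Difference in log2 share between 28 and 15 DAS for each of 14 groups, for the chloroplast (left) and mitochondrial (right) rows; large points are group means, small points the 4 combinations of a 28 DAS with a 15 DAS library. Chloroplast means lie below 0 in 6 of 7 groups of batch 2 (red) and above 0 in 6 of 7 groups of batch 1 (blue).

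By gene, 44 of 98 tested chloroplast rows rose with age and 13 fell, and 14 of 38 mitochondrial rows rose and 6 fell. Over all tested genes 40.3% rose and 46.8% fell, and the medians were 0.30 for chloroplast rows, 0.48 for mitochondrial rows and −0.08 for all genes. These differences are TMM-scaled over both ages, while shares and CPM are taken per counted read. The direction of a row with age can therefore depend on the scaling. The mitochondrial share, for 1, had a log2 difference of −0.38. Within batch 2, 17 chloroplast rows rose and 28 fell; within batch 1, 60 rose and 8 fell. Of the 45 called in batch 2 and the 68 called in batch 1, 17 were called in both in the same direction and 15 in opposite directions. Mitochondrial rows split 8 to 7 in batch 2 and 14 to 0 in batch 1, with 7 shared and none opposed. The shares of all genes called within a single batch are not given here. These counts and overlaps therefore do not show that organelle rows differ from other genes.

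Rows that rose in both batches included ATCG00470, with 10.7, 23.3 and 57.0 CPM as lowest, median and highest of 28 libraries at 28 DAS, against 9.80, 14.1 and 36.7 CPM at 15 DAS. Its ranges overlapped, while the difference within groups was 1.55 ± 0.14 on the log2 scale (SE, edgeR, adjusted p = 2.07e-12). ATCG00480 behaved alike, with a median of 52.0 CPM at 28 DAS against 34.1 CPM at 15 DAS. ATCG00420 had 1.49, 2.91 and 7.502 CPM at 28 DAS against 0.795, 1.59 and 9.47 CPM at 15 DAS (1.502 ± 0.17, SE, edgeR, adjusted p = 4.87e-10). ATCG00430, named in the annotation as above, rose by 1.09 (edgeR, adjusted p = 1.36e-06). ATCG00530, annotated as CemA-like, a chloroplast envelope protein, rose by 0.61 (edgeR, adjusted p = 8.98e-05). Its median was 3.76 CPM at 28 DAS against 3.56 CPM at 15 DAS, but its mean was lower, 3.97 against 4.51 CPM. All 23 alternatives kept the calls of ATCG00470, ATCG00480 and ATCG00420.

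ATCG00020, the row with most chloroplast reads, took a median of 24.04% of chloroplast reads at 28 DAS and 14.2% at 15 DAS. It rose by 1.31 (edgeR, adjusted p = 4.72e-06), but within batch 2 alone the difference was 0.112 and did not pass, against 2.51 within batch 1. ATCG00490 (0.32, adjusted p = 0.184) and ATCG00340 (0.05, adjusted p = 0.831) did not pass in the edgeR fit. Both tested rows annotated as ribosomal proteins fell: ATCG00660, annotated as L20, fell by 0.57 (edgeR, adjusted p = 0.0126) and ATCG00750, annotated as S11, fell by 0.33 (adjusted p = 0.0180). ATCG00770, with no name in the annotation, had 0.954, 1.62 and 3.404 CPM at 28 DAS against 1.83, 3.53 and 12.9 CPM at 15 DAS and fell by 0.47 (adjusted p = 0.000761). ATCG00670, the ClpP row, had a difference of 0.10 (edgeR, adjusted p = 0.475).

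Among mitochondrial rows ATMG00670 had 0.227, 0.734 and 2.27 CPM at 28 DAS against 0.0311, 0.267 and 1.21 CPM at 15 DAS, and rose by 1.95 (edgeR, adjusted p = 5.72e-15). ATMG00640 rose by 0.67 (edgeR, adjusted p = 0.00348) and ATMG01360 by 0.60 (adjusted p = 0.00938). Within batch 2 alone the differences were 0.19 and 0.27 and did not pass (edgeR, adjusted p = 0.536 and 0.405). In CPM, ATMG01360 was lower at 28 DAS, with a median of 1.84 against 2.15 and a mean of 2.87 against 3.21. ATMG00640 had a higher median (0.788 against 0.739 CPM) and a lower mean (1.06 against 1.24 CPM) at 28 DAS. ATMG00560, annotated as like proteins with a nucleic acid-binding OB fold, fell by 0.77 (adjusted p = 0.0178). That call was lost within batch 2 alone (adjusted p = 0.148), within batch 1 alone (adjusted p = 0.0569) and without the L2-1 libraries (adjusted p = 0.0628). ATMG00030 and ATMG00090 did not pass, with differences of 0.03 and 0.05. The 5 rows almost without reads in Ler were also compared between ages in the L1 and L2 lines, without a test. They made up 4.44 ± 1.02% of mitochondrial reads at 28 DAS and 3.38 ± 0.546% at 15 DAS (SD, n = 4 lines).

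A block of chloroplast IDs nearly vanished from the 28 DAS table. The 14 rows ATCG01140 to ATCG01310, the last of the list and grouped after their values were seen, held 38 reads over 28 libraries at 28 DAS, with 13 libraries at 0, against 877 reads over 36 libraries at 15 DAS, with 9 to 62 in each. Per 10000 chloroplast reads the medians were 0.123 and 5.26. ATCG01280 carried much of this, with 0 to 2 reads per library at 28 DAS (7 in all) against 3 to 34 at 15 DAS (351 in all) in the groups sampled at both ages. It fell by 5.35 ± 0.47 on the log2 scale (SE, edgeR, adjusted p = 1.26e-11), a call kept by all 23 alternatives. The 15 rows ATCG00830 to ATCG01000 moved less, with medians of 4.19 per 10000 at 28 DAS and 9.39 at 15 DAS. Chloroplast genomes hold a large inverted repeat whose genes exist in a pair of identical copies; which IDs are such copies is not given in the files. ATCG01310, in the block, is annotated as ribosomal protein L2 and had 47 reads in all, too few for the test. How reads matching both copies were counted in either table is not given, and its part in this difference was not tested.

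**Figure D5:**
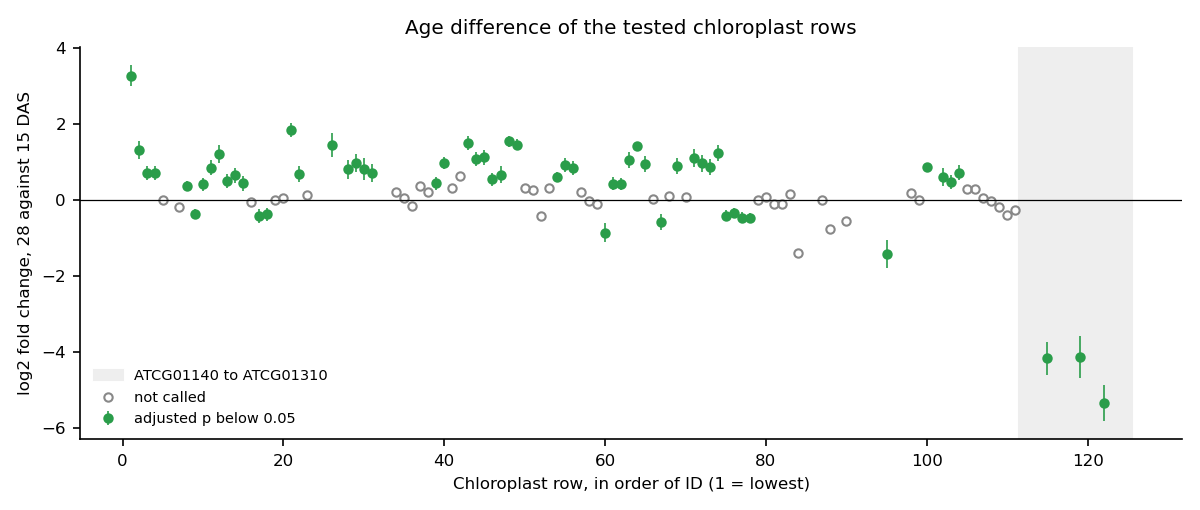
Fitted log2 fold change of 28 against 15 DAS for each tested chloroplast row, in order of identifier; bars are standard errors of rows that passed the test, and rows with too few reads are missing. The 3 tested rows of the shaded block ATCG01140 to ATCG01310 lie at −5.35 to −4.13, and the other called rows at −1.42 to 3.28.

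The remaining comparisons called no organelle row. The difference between LerxC24 and C24xLer beyond that of the batches gave 0 calls at 15 DAS (edgeR; 1 chloroplast and 0 mitochondrial rows at an unadjusted p below 0.05; 0.122% of all genes called) and 0 at 28 DAS (0 and 1 rows; 0.0% of all genes), and DESeq2 gave 0 organelle calls at both ages. The same difference for the L3 and L4 against the L1 and L2 lines gave 0 calls at 15 DAS, beside 4.26% of all genes, with 33 chloroplast and 6 mitochondrial rows at an unadjusted p below 0.05 and 7 and 3 calls by DESeq2. At 28 DAS it gave 0 calls beside 1.58% of all genes, with 16 and 6 rows below an unadjusted 0.05 and 1 and 3 calls by DESeq2.

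Without subtracting the batch difference of the parents, so that batch and genotype cannot be told apart, 33 chloroplast rows were higher and 1 lower in LerxC24 than in C24xLer at 15 DAS, and 9 mitochondrial rows were higher and 1 lower, beside 6.54% and 7.37% of all genes. At 28 DAS 0 chloroplast rows and 3 mitochondrial rows, all lower, were called, beside 5.06% and 6.47% of all genes. These 3 were ATMG00040, ATMG00730 and ATMG01170. Between the L3 and L4 and the L1 and L2 lines, 37 chloroplast rows were higher and 5 lower at 15 DAS, with 13 and 5 of the mitochondrion, beside 27.6% and 29.1% of all genes. At 28 DAS 20 chloroplast rows were higher and 0 lower, with 9 and 3 of the mitochondrion, beside 22.0% and 21.9%.

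The F1s against the mean of their parents gave 0 organelle calls at 15 DAS (1.33% of all genes called; edgeR, 1 chloroplast and 1 mitochondrial row at an unadjusted p below 0.05) and 0 at 28 DAS (1.42%; 0 and 1 rows), and DESeq2 gave 0 at both ages. The L lines against the parents gave 0 at 15 DAS (3.02%; 10 and 1 rows; DESeq2 1 and 0 calls) and 0 at 28 DAS (1.86%; 0 and 3 rows; DESeq2 0 and 1 calls). The smallest seedlings against the other seedlings of the same accessions gave 0 calls (0.563% of all genes; 0 and 2 rows), and DESeq2 gave 0 as well. Replicate B of the smallest C24 seedlings and replicate B of C24 in batch 1 were the closest libraries of all. Their counts had a chi-square per degree of freedom of 2.46, against 17.64 in the next closest pair. Between the 2 libraries of a group it was 24.8 to 444.5. A value of 2.46 exceeds sampling noise but cannot show that the material was separate. Both were kept as samples, so the comparisons that hold both may count related material as separate. The chloroplast share of the smallest seedlings averaged 0.0414 ± 0.00429%, against 0.0390 ± 0.00471% in the other seedlings (SD, n = 4 each, exact permutation p = 0.486). Their mitochondrial share was 1.25 times as high (exact permutation p = 0.143). Without the smallest C24 library of that close pair, 0 rows were called and the log2 difference in share was 0.16 for the chloroplast and 0.45 for the mitochondrion, against 0.08 and 0.32 with it. The S lines had chloroplast shares of 0.0370 ± 0.00117% (n = 4), against 0.0463 ± 0.0152% in the batch 1 L lines (SD, n = 8; exact permutation p = 0.349).

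A list of 37 nuclear genes for organelle transcription and RNA turnover was read beside these results, all 37 with enough reads. In the same TMM-scaled fit over age, 15 rose and 20 fell, beside 40.3% and 46.8% of all genes. The median was −0.17, beside −0.08 for all genes. SIG5 and SIG1, sigma factors of the plastid-encoded polymerase, rose by 3.99 ± 0.18 (SE, edgeR, adjusted p = 6.31e-22) and 2.02. In the parents, mean SIG5 went with age from 3.27 to 84.8 CPM in batch 2 and from 5.32 to 16.2 CPM in batch 1. The other listed sigma factors had lower mean CPM at 28 DAS. SIG2 had 118 against 124, SIG3 60.8 against 71.1, SIG4 56.4 against 77.3 and SIG6 105 against 115 CPM. Of the listed PAP genes of the plastid polymerase complex, all but PAP12 were also lower in mean CPM. CSP41B and CSP41A, RNA-binding proteins of the chloroplast, rose by 1.98 and 1.38, while mtPNPase, an exonuclease of mitochondrial RNA, fell by 1.71 and the editing factor MORF8 fell by 0.83. Between Ler and C24, 0 rose and 5 fell at 15 DAS (10.7% and 10.9% of all genes), PAP12 of the plastid polymerase complex by 0.71 (edgeR, adjusted p = 1.06e-05), and 0 were called at 28 DAS (11.9% and 12.2%). Between batches of the parents, 5 rose and 3 fell at 15 DAS (13.5% and 17.0% of all genes) and 12 rose and 4 fell at 28 DAS (9.18% and 9.97%), with SIG5 higher by 2.60 in batch 2 at 28 DAS (edgeR, adjusted p = 0.00311). In the L3 and L4 against the L1 and L2 lines 1 fell at 15 DAS (4.26% of all genes called) and 0 at 28 DAS (1.58%), and 0 were called in the F1s, the L lines against the parents or the smallest seedlings.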

How the data were processed

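mRNA was sequenced as paired ends of 100 bases, per the design text; TAIR10 and FastQC are named in the submitters' processing notes, while no source used here names the mapper, the counter or the strand setting. The authors deposited raw counts per gene for 64 libraries, used here without change, and tables of scaled values, whose unit is a score: counts brought to nearly equal totals by the authors and rounded. In all 64 scaled columns the values were proportional to the counts, so they were not tested. A further 38 columns of other deposited tables were not used.

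Shares are reads of a genome divided by all counted reads of a library, compared on the log2 scale by exact permutation tests, two-sided, with Benjamini-Hochberg adjustment over 22 tests. Genes were tested with edgeR 4.0.16 in R 4.3.3 (TMM scaling, filterByExpr by group, quasi-likelihood test, adjusted p below 0.05 over all tested genes), separately at each age and once over both ages, with group means as coefficients; scripts were tested on simulated data. Alternatives were DESeq2 1.42.0, other scalings and filters, single batches, a replicate block and omitted libraries. Nuclear copies were matched with blastn 2.17.0. TMM sets the scale from all genes, so a library rich in organelle RNA raises all organelle rows together. The biological coefficient of variation at 15 DAS was 0.469 for chloroplast and 0.434 for mitochondrial rows, from the median of the dispersions of single rows. For all genes it was 0.177, from the common dispersion, which is not the same measure. With that limit, smaller differences may have been callable in nuclear genes.

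Named genes were, per genome, the 5 largest rises and falls with a mean of at least 1 CPM for age and for Ler against C24, rows called at both ages without overlap, annotated rows of interest and the 3 rows with most reads; of IDs without a name only a few are printed. The members and lists were chosen with earlier results of these data known.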

Additional observations from a re-analysis of the deposited data

Results flagged for a closer look

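In 24 scans of sets of 4 libraries, 8 had 1 library separated from the rest by more than Dixon's 95% limit; chance flags about 1 in 20 sets, and several sets share a library. The gap to the next library is given as a share of the whole range. Ler batch 2 replicate D stood apart at 15 DAS among the Ler libraries (0.9277 for the chloroplast, 0.9466 for the mitochondrion) and among the batch 2 parents (0.9826 and 0.9707), with a chloroplast share of 0.652%. LerxC24 replicate B stood apart among the F1 libraries at 15 DAS (0.9071 and 0.8588), with a chloroplast share of 0.354%. At 28 DAS Ler batch 1 replicate A (0.9526, chloroplast share 0.188%) and C24 batch 1 replicate A (0.8916, 0.0959%) stood apart for the chloroplast.

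The chloroplast age difference itself differed between batches, by −1.421 on the log2 scale (batch 2 minus batch 1). That test was added after seeing the data and took groups as units (exact permutation p = 0.0035). In batch 2, 1 of 7 groups was higher at 28 DAS, and in batch 1, 6 of 7.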

How the results depend on the processing

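Depth limits mitochondrial rows most, with 636 to 8338 reads a library. Leaving out rRNA and tRNA rows, or rows with a second copy, was not run because the IDs are not annotated; the age comparison of genes left out each of 14 groups in place of single libraries. Outside the omission of single libraries, 319 summary values kept their direction and side of the threshold. Among the rest, 52 counts of calls moved, 6 values reversed and 1 became stronger. With single libraries left out, 658 were kept, 42 moved and 36 reversed. The cause of the changes was not tested.

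Shares: the mitochondrial age difference was −0.4328 and passed without the 10 libraries that stood apart (chosen after seeing the data). L lines against parents at 28 DAS turned positive for the chloroplast with TMM-scaled libraries (0.02184), on the percent scale (0.002683) and without the 3 highest rows (0.03529), and for the mitochondrion on the percent scale (0.0002113). Ler against C24 at 15 DAS was −0.1135 and −0.01152 without the 10 libraries.

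Counts of calls, chloroplast then mitochondrion. Ler against C24 at 15 DAS: 0 and 2 in batch 1, 37 chloroplast in batch 2, 2 and 2 when fitted alone, 17 chloroplast with DESeq2, 3 mitochondrial with own-genome scaling, 4 without the 10 libraries. At 28 DAS: chloroplast 0 in either batch, 2 without a filter, 4 with own-genome scaling, 0 without the 10 libraries, 4 fitted alone, 2 with DESeq2, and 3 mitochondrial in batch 1. Batches of parents at 15 DAS: 37 and 7 fitted alone, 7 mitochondrial with own-genome scaling, 8 without the 10 libraries; at 28 DAS: 19 chloroplast with own-genome scaling, 7 fitted alone, 5 with DESeq2, 0 mitochondrial without the 10 libraries. L3 and L4 against L1 and L2 at 15 DAS: 42 and 18 direct, 2 chloroplast with DESeq2 size factors, 9 with own-genome scaling, 6 and 3 without the 10 libraries, 7 and 3 with DESeq2; at 28 DAS: 20 and 12 direct, 1 and 3 with DESeq2. F1s against each other, direct: 34 and 10 at 15 DAS, 3 mitochondrial at 28 DAS. L lines against parents: at 15 DAS 6 chloroplast in batch 2, 1 with DESeq2, 3 mitochondrial in batch 1; at 28 DAS 3 mitochondrial in batch 1, 1 with DESeq2. F1s against parents at 28 DAS: 1 mitochondrial in batch 1. Smallest seedlings: 1 mitochondrial without the 10 libraries.

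Replicate letters paired the libraries of 28 DAS batch 2, with correlations of same-letter deviations over 0.1 in 21 of 21 pairs of groups (0.5001 to 0.738), but not all of the other sets: 14 of 21 in 28 DAS batch 1, 13 of 21 in 15 DAS batch 2 and 32 of 36 in 15 DAS batch 1. The comparisons of the parents use both batches, so the fits have no block. With the letter as a replicate block the calls were 5 chloroplast for Ler against C24 at 28 DAS, 6 chloroplast for the batches at 28 DAS, 4 and 1 chloroplast for L3 and L4 against L1 and L2 at 15 and 28 DAS, 1 chloroplast and 1 mitochondrial for L lines against parents at 15 and 28 DAS. No paired fit was possible for the S lines.

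Rows that turned direction: ATCG00670 between Ler and C24 at 15 DAS (−0.2876 in batch 1, −0.7781 with own-genome scaling, −0.1397 with the replicate block, −0.6948 without the 10 libraries), and, between batches with own-genome scaling, ATMG00030 (−0.268) and ATMG01360 (−0.1085).

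Leaving out 1 library at a time, log2 share differences ranged, chloroplast then mitochondrion, over −0.1279 to 0.08898 and −0.4823 to −0.2775 for age; −0.1135 to 0.7319 and −0.01152 to 0.6884 for Ler against C24 at 15 DAS, both lowest without Ler batch 2 replicate D, and 0.04301 to 0.7118 at 28 DAS; −0.673 to 0.5841 and −0.6936 to 0.2365 for the F1s at 15 DAS, −0.5727 to 0.09011 and −0.5974 to −0.1156 at 28 DAS; −0.4289 to 0.07726 and −0.5009 to −0.02304 for the L lines at 15 DAS, −0.161 to 0.1644 and −0.1922 to 0.04499 at 28 DAS. Counts ranged over 3 to 49 and 3 to 16 for Ler against C24 at 15 DAS and 0 to 1 and 4 to 7 at 28 DAS, 22 to 80 and 6 to 21 for batches at 15 DAS and 0 to 4 and 0 to 2 at 28 DAS. They ranged over 0 to 9 and 0 to 1 for L lines against parents at 15 DAS (9 and 1 without Ler batch 2 replicate C), 0 to 1 mitochondrial at 28 DAS (without Ler batch 2 replicate D, L3-2 replicate A or L4-2 replicate A), 0 to 17 and 0 to 2 for L3 and L4 against L1 and L2 at 15 DAS (17 and 2 without Ler batch 2 replicate C), and 0 to 1 chloroplast for the F1s against each other at 15 DAS (without Ler batch 2 replicate D). ATCG00670 between Ler and C24 ranged over −0.6945 to 0.4365 at 15 DAS, with −0.04296 and −0.102 also turned, and over −0.433 to 0.1295 at 28 DAS, with 0.01851 also turned.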
